A study of Mus musculus with 6 samples.

Results

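The genes described here are Trp53, which encodes the transcription factor p53, its inhibitor gene Mdm2, and 8 genes that p53 is known to activate directly: Cdkn1a, Plk2, Sesn1, Sesn2, Ccng1, Trp53inp1, Bbc3 and Pmaip1. They were chosen by name, through the GENCODE M21 symbol of each Ensembl identifier, and all 10 were found among the 43346 genes of the count table. All 10 also passed the filter on low counts that left 14000 genes to test. The RNA came from embryonic fibroblasts of C57BL/6 mice (MEFs), primary cells used at passage 9, and was harvested 24 h after the start of treatment. The treated group received 3 µM erastin, an inhibitor of cystine uptake through system xc- that is used to trigger ferroptosis, an iron-dependent death by lipid peroxidation. The control group received the solvent DMSO. Each group had 3 libraries, made from total RNA depleted of ribosomal RNA, and the labels name no genetic change in either group. The labels call the experiment a triplicate without saying whether the cultures or embryos were separate, so p-values measure the spread between these libraries, which may be partly technical.

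p53 is held at a low level by MDM2, a ubiquitin ligase that marks it for destruction, and Mdm2 is itself switched on by p53, which closes a feedback loop. Stress raises p53 mainly by stabilising the protein, so the Trp53 transcript is not a readout of its activity, and the transcripts of its targets are commonly read in its place. The targets serve different ends: p21 (Cdkn1a) stops the cell cycle, the sestrins restrain mTORC1 and support antioxidant defence, and PUMA (Bbc3) and NOXA (Pmaip1) are BH3-only proteins that promote apoptosis. In MEFs, p53 and its upstream activator p19ARF limit the number of passages that primary cells survive in culture. Several of these targets, among them Sesn2, Pmaip1 and Trp53inp1, are also known to be induced by ATF4 or related factors of the integrated stress response, the programme that follows amino acid shortage.

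Total counts per library ran from 13333911 to 20509970, and 1 read was worth 0.0466 to 0.0778 CPM, the unit used below for read counts scaled to library size with TMM factors. The 10 genes together took 0.234% to 0.259% of the reads in DMSO libraries and 0.363% to 0.394% in erastin libraries. Fibroblast markers were high in every library, with a summed level of 36949 to 40208 CPM in DMSO and 26746 to 28343 CPM with erastin. Of the 11, 9 were lower with erastin, against 21.5% of all genes tested. The call was an adjusted p-value under 0.05 in the quasi-likelihood test of edgeR, below called edgeR QL. Dcn and Fn1 did not pass. The 6 epithelial and keratinocyte markers summed to at most 3.25 CPM in any library. The 4 blood and macrophage markers summed to 10.8 to 14.7 CPM in DMSO and 9.23 to 16.9 CPM with erastin. The 4 endothelial markers summed to 4.66 to 7.10 CPM in DMSO and 13.2 to 16.4 CPM with erastin. Most of this rise lay in Kdr and Tek, which were both higher (log2 fold changes 1.38 and 1.45, edgeR QL adjusted p = 0.00172 and 0.00117). Cdh5 and Pecam1 stayed below the filter, with means of at most 0.372 CPM. The 4 muscle markers summed to 36.4 to 46.2 CPM in DMSO and 65.7 to 69.3 CPM with erastin, nearly all of it Des, with Myod1 and Myog at means of at most 0.297 CPM. The 4 neural markers summed to 136 to 175 CPM in DMSO and 135 to 158 CPM with erastin. Among them Nes was higher (log2 fold change 0.46, edgeR QL adjusted p = 0.00288) and Tubb3 lower (-0.74, edgeR QL adjusted p = 0.00032). The part of these shifts in the results was not tested. In bulk RNA, fewer cells of a type and less RNA per cell cannot be told apart.

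The sequences just before the start sites were read from RefSeq (GRCm38.p6), to show what lies at the genes that moved. Entries covering 250 bases before to 50 bases after a start were found for 8 of the 10 genes, all except Trp53inp1 and Pmaip1, with 12 starts in all. The search was for the p53 half-site consensus of 10 bases, for a full site of 2 adjacent half-sites with at most 1 mismatch outside the 4-base cores, for TGATGNAA (bound by ATF4 with C/EBP factors), for TGACNNNGC (the core of the antioxidant response element bound by NRF2) and for TGACGTCA (the cAMP response element). Both strands were searched. Below are the 250 bases before the start for 4 genes that rose, and for Ccng1, which did not pass the test, in lower case with every match in capitals. For Cdkn1a the upstream of its 2 starts is shown.
Cdkn1a, chr17:29090729-29090978, plus strand: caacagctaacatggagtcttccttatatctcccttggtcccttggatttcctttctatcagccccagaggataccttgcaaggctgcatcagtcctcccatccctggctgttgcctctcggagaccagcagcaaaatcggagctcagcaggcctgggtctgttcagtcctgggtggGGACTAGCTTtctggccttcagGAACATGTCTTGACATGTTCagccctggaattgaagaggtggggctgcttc
Mdm2, chr10:117710759-117711008, minus strand: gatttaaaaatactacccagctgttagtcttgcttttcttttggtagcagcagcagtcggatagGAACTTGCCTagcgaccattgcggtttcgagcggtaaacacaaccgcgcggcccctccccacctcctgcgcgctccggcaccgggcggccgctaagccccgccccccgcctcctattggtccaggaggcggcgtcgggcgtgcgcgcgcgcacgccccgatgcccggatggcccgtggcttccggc
Plk2, chr13:110394794-110395043, plus strand: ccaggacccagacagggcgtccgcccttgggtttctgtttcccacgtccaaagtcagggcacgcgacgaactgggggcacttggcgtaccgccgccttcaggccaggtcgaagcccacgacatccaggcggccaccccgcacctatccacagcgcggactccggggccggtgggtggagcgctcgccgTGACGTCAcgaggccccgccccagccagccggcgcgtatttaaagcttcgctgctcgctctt
Sesn2, chr4:132510457-132510706, minus strand: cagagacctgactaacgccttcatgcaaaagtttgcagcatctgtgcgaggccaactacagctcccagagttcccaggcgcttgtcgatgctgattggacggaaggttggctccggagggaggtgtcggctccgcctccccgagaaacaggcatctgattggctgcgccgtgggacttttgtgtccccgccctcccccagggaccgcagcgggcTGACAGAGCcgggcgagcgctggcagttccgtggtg
Ccng1, chr11:40755287-40755536, minus strand: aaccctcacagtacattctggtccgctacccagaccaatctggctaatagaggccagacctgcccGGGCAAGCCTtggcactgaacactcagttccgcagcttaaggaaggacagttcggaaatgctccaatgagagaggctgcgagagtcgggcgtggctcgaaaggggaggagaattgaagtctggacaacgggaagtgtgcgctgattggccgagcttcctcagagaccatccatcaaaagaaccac

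Within the windows searched, Cdkn1a alone of these 8 genes held a full p53 site, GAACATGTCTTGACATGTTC, at chr17:29090928-29090947. It began 51 bases before the upstream start and 2841 bases before the downstream one, and only 0.0548% of all 32851 promoters in the table held such a site. With no mismatch allowed it was no longer a match, and 0.00913% of promoters then held one. Single half-sites were far more common, in 8.36% of all promoters, and stood in those of Trp53, Mdm2, Cdkn1a, Sesn1 (its downstream start) and Ccng1. TGACNNNGC was found for Trp53, Sesn2 and the downstream start of Cdkn1a, against 12.4% of all promoters. Plk2 held TGACGTCA 62 bases before its start, as did 1.79% of all promoters in some position. TGATGNAA was in 0 of the 12 windows, against 3.97% of all. Genes with a half-site thus included 2 that rose (Mdm2 and Cdkn1a), 1 that fell (Sesn1) and 2 that did not pass (Trp53 and Ccng1). Among the genes searched that had none, Plk2 and Sesn2 rose and Bbc3 did not pass. A match describes letters and shows no binding. Sequence farther upstream or downstream was not searched, so a gene without a match here may hold a site elsewhere.

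Erastin raised part of this set, while p53's own transcript did not pass the test. Mdm2, Cdkn1a, Plk2, Sesn2 and Pmaip1 rose, Sesn1 fell, and Trp53, Ccng1, Trp53inp1 and Bbc3 did not pass an adjusted p-value of 0.05 (edgeR QL, adjusted over all 14000 genes). That is 6 of 10 differing, against 43.1% of all genes tested; 5 of 10 were higher, against 21.6%, and 1 was lower, against 21.5%. The median log2 fold change of the 10 genes was 0.50, against -0.0014 over all genes. In 7 of the 10 the 3 erastin libraries lay wholly above (6 genes) or below (1 gene) the 3 DMSO libraries, which held for 26.7% and 25.8% of all genes, 52.5% in all. Mdm2 and Plk2, 2 of the 10, passed the threshold and also rose by at least 1 on the log2 scale. Both conditions held for 4.99% of all genes. These are counts over a set chosen by name with earlier results of these data known, so they are no independent support. The share of all genes that moved in these cells was itself large.

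**Figure D1:**
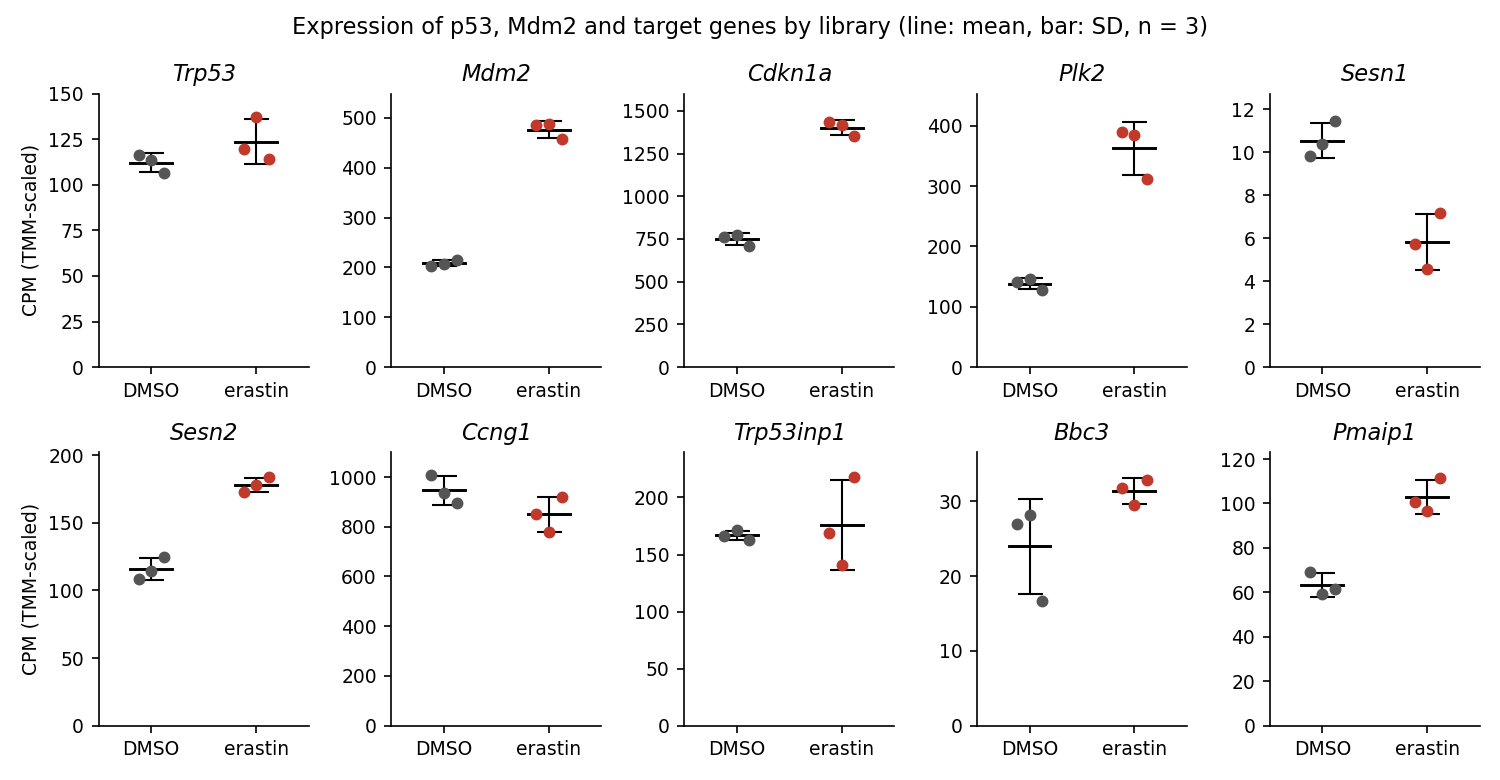
Expression in each library, in CPM scaled with TMM factors, on axes that start at 0; points are libraries (grey DMSO, red erastin), lines are means and bars are SD (n = 3). Mdm2, Cdkn1a, Plk2, Sesn2, Pmaip1 and Bbc3 have all 3 erastin points above all 3 DMSO points, Sesn1 has them below, and Trp53, Ccng1 and Trp53inp1 overlap.

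Trp53 (ENSMUSG00000059552.9, chr11:69580359-69591873) stood at 116, 114 and 107 CPM in DMSO libraries and at 119.6, 137 and 114 CPM in erastin libraries. The groups overlapped, and the means of 112 ± 5.03 and 124 ± 12.2 CPM (SD, n = 3) gave a log2 fold change of 0.14 with a 95% interval of -0.05 to 0.33 (edgeR QL adjusted p = 0.219). The interval does not hold a change as large as that of any of the 5 genes that rose. The gene had 1369 to 2570 reads in each library.

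Mdm2 (ENSMUSG00000020184.10, chr10:117688875-117710758) encodes the ligase that removes p53. It stood at 203, 207 and 215 CPM in DMSO and at 485, 487 and 457 CPM with erastin. The groups were far apart and tight within, so that the lowest erastin library was above the highest DMSO library by more than the range of either. Mdm2 rose 2.29-fold, from 208 ± 5.92 to 476 ± 17.0 CPM (n = 3, ± SD; log2 fold change 1.19, SE 0.07, edgeR QL adjusted p = 7.25e-09). Its relative Mdm4, which also restrains p53, was at 37.7 ± 1.12 CPM in DMSO and 43.7 ± 6.63 CPM with erastin (SD, n = 3) and did not pass (log2 fold change 0.21, edgeR QL adjusted p = 0.161).

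Cdkn1a (ENSMUSG00000023067.9, chr17:29090976-29100727), whose product p21 inhibits cyclin-dependent kinases, stood at 764, 771 and 708 CPM in DMSO and at 1436, 1416 and 1351 CPM with erastin. It rose 1.87-fold, from 748 ± 34.8 to 1401 ± 44.7 CPM (n = 3, ± SD; log2 fold change 0.91, SE 0.07, edgeR QL adjusted p = 7.5e-08). Plk2 (ENSMUSG00000021701.7, chr13:110395046-110400844), a polo-like kinase known for roles in centriole duplication and stress signalling, was at 141, 147 and 128 CPM in DMSO and at 389.7, 385 and 312 CPM with erastin. It had the largest rise of the 10 genes, 2.62-fold, from 138 ± 9.57 to 362 ± 43.5 CPM (n = 3, ± SD; log2 fold change 1.39, SE 0.09, edgeR QL adjusted p = 3.12e-08). Both cell-cycle genes were thus separated between groups by several times their spread, with erastin replicate 3 the lowest of its group in each.

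Ccng1 (ENSMUSG00000020326.7, chr11:40748552-40755311), which encodes cyclin G1, a partner of the phosphatase PP2A in the control of MDM2, was abundant in both groups. It stood at 1008, 937 and 894 CPM in DMSO and at 852, 779.6 and 919.6 CPM with erastin. Erastin replicate 3 lay among the DMSO libraries, and the difference did not pass (log2 fold change -0.15, SE 0.08, 95% interval -0.32 to 0.01, edgeR QL adjusted p = 0.118). 3 settings and the omission of 1 library changed that call. Ccng1 was lower with upper-quartile factors (log2 fold change -0.21, edgeR QL adjusted p = 0.0392), after an offset for GC content and transcript length (-0.33, edgeR QL adjusted p = 0.000741; with the replicate block -0.33, edgeR QL adjusted p = 0.00059), and without erastin replicate 3 (-0.21, edgeR QL adjusted p = 0.039). Over all alternatives its value ran from -0.33 to -0.09, so it was higher in none of them. The upper bound of 0.01 lies below the rises of Mdm2, Cdkn1a and Plk2.

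The sestrins parted. Sesn2 (ENSMUSG00000028893.8, chr4:132492032-132510501), a leucine-binding inhibitor of mTORC1 signalling, stood at 108, 115 and 125 CPM in DMSO and at 173, 178 and 184 CPM with erastin. It rose 1.54-fold, from 116 ± 8.24 to 178 ± 5.27 CPM (n = 3, ± SD; log2 fold change 0.62, SE 0.08, edgeR QL adjusted p = 1.72e-05). Sesn1 (ENSMUSG00000038332.8, chr10:41809935-41908424), the family member best known as a p53 target, was scarce, at 9.82, 10.4 and 11.4 CPM in DMSO and at 5.73, 4.55 and 7.16 CPM with erastin. It fell 1.81-fold on 76 to 187 reads per library, from 10.5 ± 0.824 to 5.81 ± 1.31 CPM (n = 3, ± SD; log2 fold change -0.86, SE 0.23, edgeR QL adjusted p = 0.00716). Sesn3, which is known to be driven by FOXO factors, fell as well, from 29.5 ± 5.27 to 14.9 ± 3.20 CPM (n = 3, ± SD; log2 fold change -0.98, SE 0.17, edgeR QL adjusted p = 0.000337).

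Trp53inp1 (ENSMUSG00000028211.7, chr4:11156431-11174379), a nuclear and autophagy-linked cofactor of p53, stood at 166, 171 and 163 CPM in DMSO and at 169, 141 and 218 CPM with erastin. The DMSO libraries nearly coincided while the erastin libraries spread to both sides of them, and the log2 fold change was 0.08 with a 95% interval of -0.18 to 0.33 (edgeR QL adjusted p = 0.649). Its sign turned without erastin replicate 3 (-0.11, edgeR QL adjusted p = 0.399) and after the GC and length offset (-0.20, edgeR QL adjusted p = 0.148; with the replicate block -0.22, edgeR QL adjusted p = 0.0641). Its relative Trp53inp2, a regulator of autophagy, fell from 148.5 ± 14.0 to 108 ± 8.22 CPM (n = 3, ± SD; log2 fold change -0.45, SE 0.09, edgeR QL adjusted p = 0.000847).

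The pair of BH3-only genes gave a firm and an uncertain value. Pmaip1 (ENSMUSG00000024521.7), which encodes NOXA, an antagonist of MCL1, was at 69.1, 59.1 and 61.6 CPM in DMSO and at 101, 96.8 and 111 CPM with erastin. It rose 1.63-fold, from 63.3 ± 5.22 to 103 ± 7.57 CPM (n = 3, ± SD; log2 fold change 0.70, SE 0.09, edgeR QL adjusted p = 2.4e-05). Bbc3 (ENSMUSG00000002083.8, chr7:16308393-16318205), which encodes PUMA, was at 27.0, 28.2 and 16.7 CPM in DMSO and at 31.8, 29.5 and 32.8 CPM with erastin. All 3 erastin libraries were above all 3 DMSO libraries, but DMSO replicate 3 lay far below the other two, and the difference did not pass (log2 fold change 0.38, SE 0.17, 95% interval 0.03 to 0.74, edgeR QL adjusted p = 0.075). The call for Bbc3 turned on the processing. It was higher after the GC and length offset (log2 fold change 0.75, edgeR QL adjusted p = 0.00233; with the replicate block 0.79, edgeR QL adjusted p = 0.00145), with scaling by total count only (0.45, edgeR QL adjusted p = 0.0421), without the filter on low counts (0.40, edgeR QL adjusted p = 0.0212) and without DMSO replicate 2 (0.52, edgeR QL adjusted p = 0.0422). Without DMSO replicate 3 it was 0.18, and its edgeR QL adjusted p then was 0.266. Over all alternatives the adjusted p ran from 0.00145 to 0.266. The longest Bbc3 transcript has a GC content of 65.21%, the highest of the 10, and those of Ccng1 and Trp53inp1 have 40.77% and 38.81%, the lowest.

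**Figure D2:**
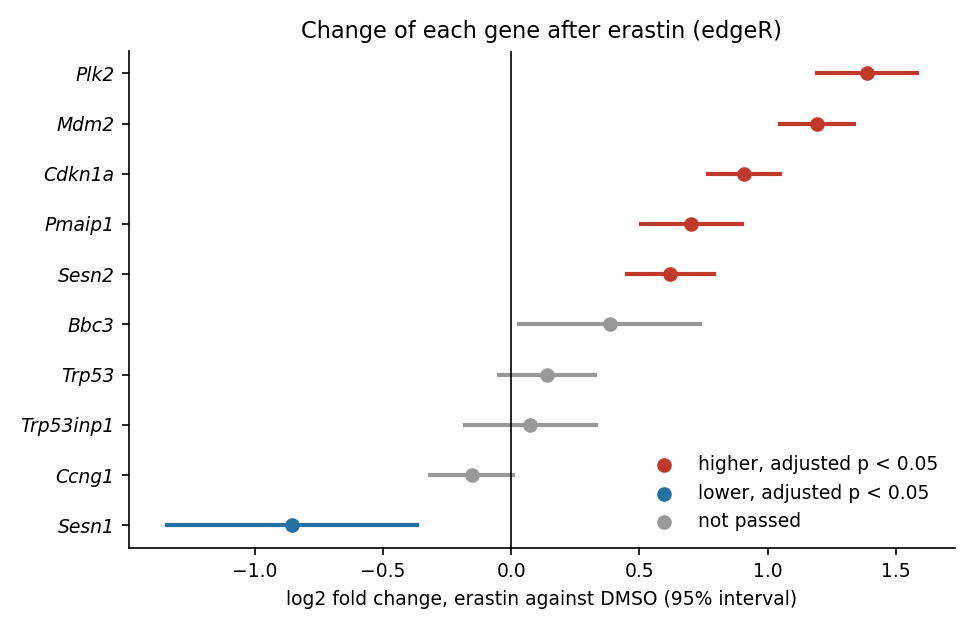
Log2 fold change of each gene, erastin against DMSO, with its 95% interval from the edgeR fit; red marks genes higher and blue genes lower at an adjusted p-value under 0.05, grey those that did not pass. Plk2 (1.39), Mdm2 (1.19) and Cdkn1a (0.91) lie farthest to the right, Sesn1 (-0.86) farthest to the left, and the interval of Trp53 spans 0.

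Ratios of a pair of genes within a library do not depend on how libraries are scaled. There were 1.75, 1.82 and 2.02 Mdm2 reads per Trp53 read in DMSO libraries and 4.05, 3.55 and 4.01 with erastin. The ratio of Cdkn1a to Trp53 was 6.57, 6.78 and 6.64 in DMSO and 12.0, 10.3 and 11.9 with erastin. Both targets therefore moved against Trp53 without overlap between groups, by 1.06 and 0.77 on the log2 scale. Sesn2 reads per Sesn1 read were 11.0, 11.1 and 10.9 in DMSO and 30.2, 39.1 and 25.7 with erastin, a log2 difference of 1.50. For each of these 3 ratios the exact permutation test (two-sided) gave p = 0.1, the smallest that 3 libraries against 3 allow, and 0.133 after Benjamini-Hochberg adjustment over the 4 ratios, so none could reach 0.05. Pmaip1 to Bbc3 was 2.56, 2.10 and 3.68 in DMSO and 3.16, 3.28 and 3.39 with erastin, where the groups overlapped (log2 difference 0.28, exact permutation p = 0.4, adjusted 0.4).

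**Figure D3:**
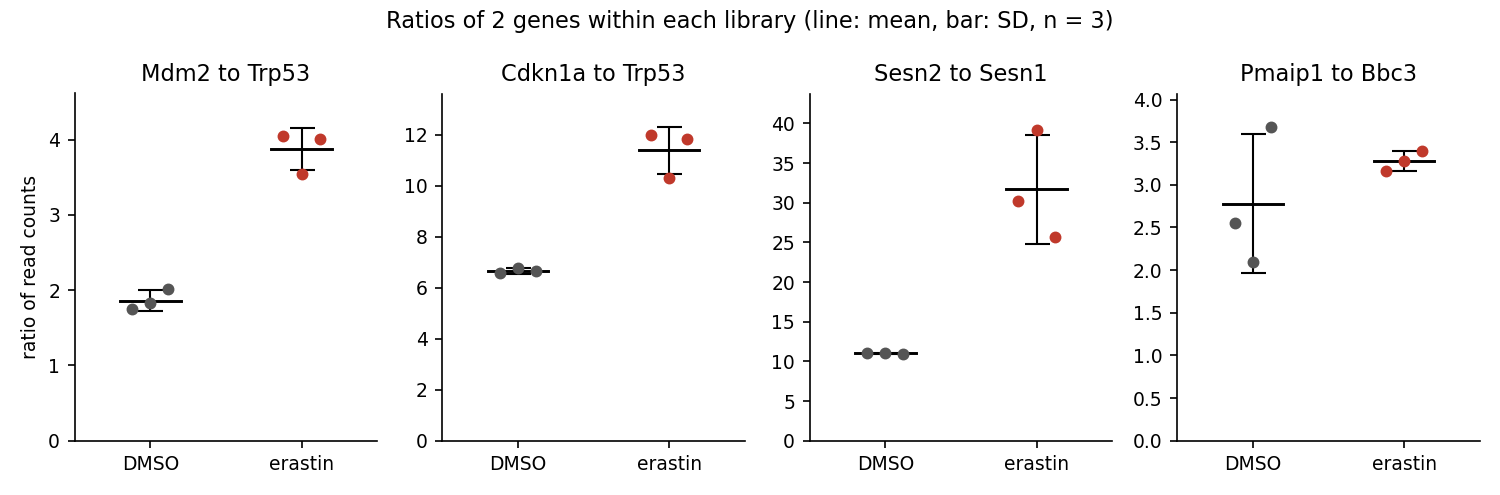
Ratio of the read counts of 2 genes within each library, on axes that start at 0; points are libraries (grey DMSO, red erastin), lines are means and bars are SD (n = 3). The Mdm2 to Trp53, Cdkn1a to Trp53 and Sesn2 to Sesn1 ratios are higher in all 3 erastin libraries than in any DMSO library, and the Pmaip1 to Bbc3 ratios overlap.

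Levels of different genes were compared per length, as CPM per kilobase of the exons of all transcripts. In DMSO, Ccng1 led at 269 ± 16.3, followed by Cdkn1a at 210.4 ± 9.79 and, far below, Mdm2 at 41.0 ± 1.16 CPM per kilobase (SD, n = 3). Sesn2, Plk2, Trp53, Trp53inp1 and Pmaip1 followed between 33.4 and 23.2, and each of the first 4 of these overlapped with the next in the order. Bbc3 at 11.3 ± 2.97 and Sesn1 at 2.65 ± 0.207 came last (SD, n = 3), each apart from its neighbours. With erastin Cdkn1a led at 394 ± 12.6, above Ccng1 at 242 ± 19.9, Mdm2 at 93.7 ± 3.35, Plk2 at 80.7 ± 9.68, Sesn2 at 51.3 ± 1.52 and Pmaip1 at 37.7 ± 2.77 CPM per kilobase (SD, n = 3), all without overlap between neighbours. Trp53 and Trp53inp1, at 30.6 ± 3.02 and 27.1 ± 6.05, overlapped, and Bbc3 at 14.8 ± 0.800 and Sesn1 at 1.46 ± 0.328 CPM per kilobase again stood last (SD, n = 3). With the length of the longest transcript in place of the exon union, 5 of the 10 genes kept their rank in DMSO, and Cdkn1a then stood above Ccng1 in both groups. With that length Sesn2 moved from rank 4 to rank 6 in DMSO, behind Plk2 and Trp53, and Trp53 moved above Pmaip1 with erastin. The order of these genes thus depended on the length used.

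Beyond these genes, a list of 59 other reported p53 targets moved in both directions. Of the 57 tested, 17 rose, 20 fell and 20 did not pass. That is 64.9% differing, against 43.1% of all genes (21.6% higher and 21.5% lower). Their median log2 fold change was -0.03, against -0.0014 over all genes. The largest rises were those of Atf3 (4.73 ± 2.93 to 115 ± 14.1 CPM), Gdf15 (9.58 ± 3.11 to 194 ± 19.4 CPM), Gadd45a (22.8 ± 4.68 to 130.4 ± 7.71 CPM) and Plk3 (14.7 ± 3.54 to 49.7 ± 11.9 CPM; SD, n = 3 each), with edgeR QL p-values, adjusted, of at most 2.92e-06. Atf3 encodes a stress transcription factor, Gdf15 a secreted stress cytokine, Gadd45a a growth-arrest protein and Plk3 a relative of Plk2; the first 3 are also known targets of the integrated stress response. The largest falls were those of the death receptor gene Fas (15.6 ± 2.31 to 7.24 ± 1.93 CPM), the mitotic gene Ckap2 (24.5 ± 1.58 to 11.7 ± 0.707 CPM), Perp, which encodes a membrane protein of desmosomes and apoptosis (24.3 ± 4.60 to 11.8 ± 2.92 CPM), and Pml, the scaffold of nuclear bodies (71.0 ± 2.81 to 35.9 ± 3.10 CPM; SD, n = 3 each), with edgeR QL p-values, adjusted, of at most 0.000717.

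Other standard p53 targets of the same list, already counted above, are named here after their values were seen. They did not share one direction, and they do not stand for the whole list, in which 17 rose and 20 fell. Polk, a translesion polymerase, Aen, a nuclease, and Eda2r, a receptor of the TNF family, had log2 fold changes of 1.01, 0.64 and 0.58 and rose (edgeR QL adjusted p = 2.65e-07, 2.8e-05 and 6.02e-05). The pro-apoptotic gene Bax was at 177 ± 10.4 CPM in DMSO and 183 ± 9.93 CPM with erastin (n = 3, ± SD; log2 fold change 0.05, edgeR QL adjusted p = 0.654). After the GC and length offset it was higher (0.41, edgeR QL adjusted p = 3e-04; with the replicate block 0.41, edgeR QL adjusted p = 0.000305), and with upper-quartile factors its sign turned (-0.0057, edgeR QL adjusted p = 0.963). Zmat3, which encodes an RNA-binding protein, had a log2 fold change of 0.17 and missed the threshold (edgeR QL adjusted p = 0.0565). It passed with scaling by total count only (0.24, edgeR QL adjusted p = 0.0213) and in DESeq2 (0.17, DESeq2 adjusted p = 0.0297). In 13 of its 15 alternatives it did not pass, with a log2 fold change down to 0.06 and an edgeR QL adjusted p up to 0.551. Phlda3, an inhibitor of AKT, was lower by 0.40 on the log2 scale (edgeR QL adjusted p = 0.000312), and this did not pass after the offset (-0.08, edgeR QL adjusted p = 0.394; with the replicate block -0.08, edgeR QL adjusted p = 0.422).

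Among 28 regulators and cofactors of p53, 27 were tested, of which 8 rose, 2 fell and 17 did not pass. That is 37.0% differing, against 43.1% of all genes (21.6% higher and 21.5% lower). Their median log2 fold change was 0.21. Cdkn2a, the gene of p16INK4a and p19ARF, fell from 163 ± 19.3 to 88.1 ± 9.40 CPM (n = 3, ± SD; log2 fold change -0.89, SE 0.10, edgeR QL adjusted p = 5.98e-06); counts per gene do not separate its 2 products. Rchy1, a ubiquitin ligase for p53, was also lower, by 0.33 on the log2 scale (edgeR QL adjusted p = 0.0304), a call lost in 5 of 15 alternatives with adjusted p-values up to 0.113: scaling by total count, no filter on low counts, and without DMSO replicate 3, erastin replicate 2 or erastin replicate 3. The largest rises were those of the p53-binding cofactor genes Ppp1r13l (iASPP, an inhibitor; log2 fold change 0.83, SE 0.18) and Trp53bp2 (ASPP2, an activator; 0.73, SE 0.13), followed by the bromodomain gene Brd7 (0.62, SE 0.13) and the kinase gene Hipk2 (0.58, SE 0.10). Their edgeR QL adjusted p-values were at most 0.0015. The p53 relatives Trp63 and Trp73 were near the floor of detection, at no more than 0.258 CPM on average in either group, and were not tested.

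The list called paralogs held 18 relatives of the 10 genes, with other BH3-only genes counted as relatives of Bbc3 and Pmaip1. Some, such as Plk1, Plk3, Plk4 and Mdm4, stood on other lists too. Of the 18, 13 were tested, and 3 rose, 6 fell and 4 did not pass. That is 69.2% differing, against 43.1% of all genes (21.6% higher and 21.5% lower). Their median log2 fold change was -0.30. Besides Plk3, the BH3-only gene Bid rose (42.4 ± 1.68 to 77.0 ± 6.82 CPM, n = 3, ± SD; edgeR QL adjusted p = 4.36e-06), and so did Ccng2, the cyclin G gene known as a FOXO target (26.8 ± 1.12 to 37.6 ± 5.09 CPM, n = 3, ± SD; edgeR QL adjusted p = 0.00528). The polo-like kinase genes thus moved apart: Plk2 and Plk3 rose, while the mitotic kinase gene Plk1 fell from 17.3 ± 0.685 to 2.15 ± 0.741 CPM and the centriole kinase gene Plk4 from 11.4 ± 0.600 to 3.52 ± 1.15 CPM (n = 3, ± SD; edgeR QL adjusted p = 2.45e-07 and 0.000103). Bad, another BH3-only gene, fell from 43.9 ± 3.63 to 20.1 ± 0.696 CPM (n = 3, ± SD; edgeR QL adjusted p = 1.79e-06).

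A further pair of lists moved in one direction each. Like the 10 genes and the other lists, both were chosen with earlier results of these data known, so none of these counts is independent support. The p53-p21-DREAM list held genes that p53 is reported to repress through p21 and the DREAM complex, a repressor of cell-cycle genes. They were all lower, 20 of 20 against 21.5% of all genes, with a median log2 fold change of -2.26. Birc5, the survivin gene, Ccnb1, the gene of cyclin B1, Plk1 and the centromere histone gene Cenpa had the largest falls among its members averaging at least 50 reads per library, between -3.47 and -2.98 on the log2 scale (edgeR QL p-values, adjusted, of at most 2.41e-05). Genes of the integrated stress response were all higher, 13 of 13 against 21.6% of all genes, with a median of 0.93; Slc7a11, Ppp1r15a, Chac1 and Vldlr led with log2 fold changes of 3.75, 2.96, 2.22 and 1.72 (edgeR QL p-values, adjusted, of at most 1.36e-09). Atf4 itself, named after its values were seen, rose from 217 ± 17.0 to 414 ± 9.52 CPM (n = 3, ± SD; log2 fold change 0.93, SE 0.07, edgeR QL adjusted p = 1.66e-07). The rises of Sesn2 and Pmaip1, at 0.62 and 0.70, lay within the range of this list, from 0.32 to 3.75. So did those of Mdm2, Cdkn1a and Plk2. All of them also lay within the range of the other p53 targets that rose, from 0.26 (Slc19a2) to 4.59 (Atf3). Ranges this wide do not separate the lists. What part either programme had in these rises, or p53 in the fall of the 20 cell-cycle genes, was not tested.

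**Figure D4:**
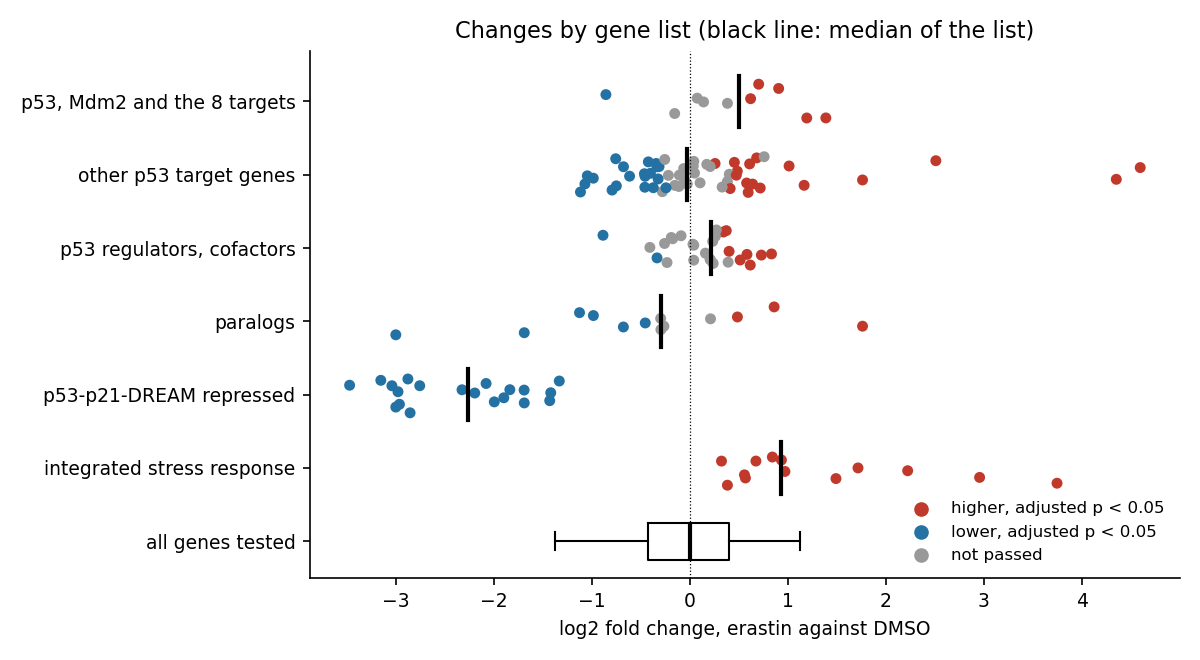
Log2 fold change of every tested gene of each list, erastin against DMSO; points are genes (red higher, blue lower, grey not passed), black lines are list medians, and the box shows the quartiles of all 14000 genes with whiskers from the 5th to the 95th percentile. Points of the other p53 target genes lie on both sides of 0, those of the p53-p21-DREAM list all to the left, and those of the integrated stress response list all to the right.

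Patterns most like those of Mdm2 and Cdkn1a were looked for among 11222 other genes, all averaging 50 or more reads, by the Euclidean distance of centred log2 CPM over the 6 libraries. For Mdm2 the nearest were Ptpn12 (distance 0.065), Grem1 (0.085), Shmt2 (0.089), Atp6v1h (0.093) and Mef2a (0.10), with log2 fold changes of 1.15 to 1.22. For Cdkn1a they were Rnmt (0.093), Rab3gap2 (0.095), Rbm28 (0.099), Nfe2l2 (0.10) and Mthfd2 (0.12), with log2 fold changes of 0.86 to 0.96. None of these 10 genes is on the list of other p53 targets. That list has only 57 tested genes, against 11222 genes searched, so 10 neighbours would rarely include one. Nothing is read from its absence.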

How the data were processed

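RNA was sequenced from 3 DMSO and 3 erastin libraries on an Ion Proton instrument, per the labels' protocols. The authors deposited whole-number read counts per gene, with no normalization. The submitters' processing notes name HTSeq 0.9.1, SAMtools and the build mm10, without their roles; the aligner, annotation and strand setting are not given in the sources used here, so reads of a gene and an antisense partner may not be separated. In GENCODE M21 the exons of 1 of the 10 genes, Cdkn1a, overlap another gene, one on the opposite strand that covers 7.68% of its exon bases. Symbols and coordinates (GRCm38, the assembly of mm10) are from M21, which named 98% of the identifiers. Columns were matched to libraries by the sample numbers in the labels, and the number of unused per-sample columns was 0.

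Counts were fitted with edgeR 4.0.16 (R 4.3.3): filterByExpr with a minimum count of 10 in 3 libraries and a total of 15, TMM factors, glmQLFit and glmQLFTest with treatment as the only term, and Benjamini-Hochberg adjustment over all genes tested. The fit was tested on simulated data. Alternatives were RLE and upper-quartile factors, total count only, 2 other filters, DESeq2 1.42.0, the replicate number as a block, leaving out each library, and an offset that takes out each library's trend with the GC and length of the longest transcript (mgcv 1.9.3). For single genes outside the 10 they were run after the data were seen, and not for every gene named. Within-group pairs of libraries differed by a chi-square of 10.96 to 19.2 per degree of freedom, more than counting noise, so no pair was treated as 1 library deposited again; this does not show separate cultures. Intervals cover the spread between libraries. A floor of 3 counts was 0.140 to 0.234 CPM; it covers counting error only, as PCR copies are not marked.

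The 10 genes and all lists were chosen with earlier results of these data known. Named from each list were the 4 genes with the largest change in each direction among those past the threshold with a mean count of at least 50, relatives of the 10 genes, and the 5 nearest patterns; others are said to be named after their values were seen. Without a genome, the search for p53 sites used the promoter table in place of 2500 bases either side of each start.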

Additional observations from a re-analysis of the deposited data

How the results depend on the processing

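The number of the 10 genes that differed was 6 as reported and 6 to 8 over its 16 alternatives, and 5 to 6 were higher. Mdm2, Cdkn1a, Plk2, Sesn2 and Pmaip1 stayed higher and Sesn1 lower, all past the threshold, in every alternative run for them (15 each), and Trp53 did not pass in any of the 15. The count of lower genes was 1 as reported and 2 with upper-quartile factors, 2 after the GC and length offset, 2 with that offset and the replicate block, and 1 to 2 when 1 library was left out; the second gene is Ccng1 in each case. The sign of Trp53inp1, 0.08 as reported, was reversed after the offset (-0.20, with the block -0.22) and without erastin replicate 3 (-0.11, against 0.21 without erastin replicate 2), and that of Bax with upper-quartile factors (-0.0057). Over all genes the median, -0.0014 as reported, was -0.055 with these factors and 0.065 with total count only; the causes of the other changes were not tested. With the replicate block 6 of the 10 genes and 5882 of all genes differed, against 6 and 6028 without it. Equally numbered libraries deviated together with a mean correlation of only 0.0076, so the numbers were not taken as a pairing.

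The counts for all genes ran from 4305 (adjusted p-value under 0.01) to 6104, those of the other p53 targets from 32 to 38, of regulators from 8 to 12, of paralogs from 9 to 10, of the p53-p21-DREAM list from 19 to 20 and of the stress response list from 12 to 13. Of 49 other genes for which alternatives were run, 44 kept direction and side of the threshold in 15 alternatives each. The rest were Rchy1, Bax, Zmat3, Phlda3 and Ddit3, a gene of the stress response list not described above. Alternatives were not run for every gene named, Nes, Tubb3 and Slc19a2 among those left out. The 4 ratios kept their sign, from 0.094 to 0.50 for Pmaip1 to Bbc3 when 1 library was left out, 1.01 to 1.12 for Mdm2 to Trp53, 0.73 to 0.84 for Cdkn1a to Trp53 and 1.34 to 1.64 for Sesn2 to Sesn1. With the longest transcript as length, 5 of 10 ranks in DMSO were kept. With 0 mismatches allowed, 0 promoters of these genes held a full p53 site, against 1 with 1 or 2. A window of 1000 bases either side of the start was not run, because no genome was used. Sesn1, with 76 to 187 reads per library, has the widest interval, and 3 libraries per group limit all values.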
